A study of Mus musculus with 50 samples.

Results

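C1ra, C1rb, C1s1, C1s2 and C1rl are the mouse genes for the serine proteases C1r and C1s of complement and for the C1r-like protease, and they lie side by side on chromosome 6. They were selected by name and position, with earlier results of these data known, as the C1 protease genes listed in the table of expression values, and all 5 were found among its 12185 genes. The 2 genes C1rb and C1s2 were included with their 2-level pattern across livers in view, so the levels of the 5 genes and their pattern across livers are described with no test. Tests covered their relation to library and animal number, which the choice did not use, and the relation of other genes to each of the 5. Expression was measured by RNA sequencing of the liver of N2 mice, bred by crossing (B6.A4 x B6)F1 with (B6.A6 x B6)F1 animals, where B6 is C57BL/6J and B6.A4 and B6.A6 carry chromosome 4 or 6 of A/J. A/J alleles can therefore occur only on chromosomes 4 and 6, and only opposite a B6 copy, so every value is of whole liver from an animal that is at most heterozygous for A/J alleles. The methods give the mice as fasted overnight and 5 weeks old and the tissue as the caudate lobe of the liver, whereas the labels call them adult males of an F2 cross. The paper compared males and females of the cross and ran its scans with and without sex as a covariate. Its text does not state the sex of the sequenced mice. All 50 libraries form 1 group, backcross liver, with no treatment and no genotype in the labels, and no genotype entered any result here.

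The first component of complement, C1, joins the recognition molecule C1q with a tetramer of C1r and C1s. When C1q binds antibody or another activating surface, C1r cleaves itself and then C1s, and C1s cleaves C4 and C2 to start the classical pathway, which runs through C3 and C5 to the membrane attack complex. The plasma proteins of this cascade are made largely by hepatocytes, C1q mainly by macrophages, and the inhibitor of C1r and C1s is encoded by Serping1. In the mouse the genes for C1r and C1s are duplicated. C1ra and C1s1 are known as the liver forms, C1rb and C1s2 as forms of the male reproductive tract, and C1rl encodes a related protease that cleaves the haptoglobin precursor.

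By the GENCODE M21 annotation of GRCm38, C1rl (ENSMUSG00000038527) lies on chromosome 6 from 124493113 to 124510643 on the plus strand, and C1ra (ENSMUSG00000055172) follows it from 124512405 to 124523443 on the same strand. C1s1 (ENSMUSG00000038521) lies from 124530345 to 124542359 on the minus strand, C1rb (ENSMUSG00000098470) from 124570294 to 124581171 on the plus strand and C1s2 (ENSMUSG00000079343) from 124624625 to 124636085 on the minus strand. The copies of each protease are close to each other in sequence, so a read is assigned to 1 copy only through the bases that differ. This bears on every value of C1ra, C1rb, C1s1 and C1s2 below. The longest annotated transcripts of C1ra and C1rb were 97.9% identical over 2431 aligned positions, with 42 differences in 2118 aligned coding bases and 1 run of 757 identical bases. Of the 31-base stretches of the C1rb transcripts, 70.0% were also in C1ra. C1s1 and C1s2 were 95.3% identical over 2678 positions, with 90 differences in 2082 coding bases and 40.4% of the C1s2 stretches also in C1s1. C1rl stood apart, with 0.872% of its stretches in any other gene. The coding stretches of 120 bases within 1 exon that hold the most differences show what separates the copies. They are from the C57BL/6J reference, GRCm38, with the bases that differ between the copies in capitals (13 for C1ra and C1rb, 24 for C1s1 and C1s2). The first 2 lie in exon 11 of each gene on the plus strand, at chr6:124522617-124522736 and chr6:124580663-124580782.
C1ra: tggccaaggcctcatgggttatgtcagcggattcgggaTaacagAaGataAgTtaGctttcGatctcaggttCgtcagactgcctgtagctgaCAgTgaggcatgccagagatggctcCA
C1rb: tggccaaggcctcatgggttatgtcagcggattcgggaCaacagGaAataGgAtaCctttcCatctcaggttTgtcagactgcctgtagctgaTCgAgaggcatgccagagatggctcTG
The other 2 lie on the minus strand, in exon 12 of the C1s1 transcript at chr6:124531447-124531566 and in exon 11 of the C1s2 transcript at chr6:124625669-124625788.
C1s1: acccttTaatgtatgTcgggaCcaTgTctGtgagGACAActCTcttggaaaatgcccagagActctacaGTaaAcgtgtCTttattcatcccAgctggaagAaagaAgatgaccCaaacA
C1s2: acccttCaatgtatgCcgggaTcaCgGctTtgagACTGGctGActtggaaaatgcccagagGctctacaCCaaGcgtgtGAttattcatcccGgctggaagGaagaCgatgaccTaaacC

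The promoter windows (RefSeq, GRCm38.p6, 250 bases before to 50 after the start) were less alike for the copies of C1s than for those of C1r. Between C1ra and C1rb 139 of 150 aligned bases were identical, at -99 to 49 from the RefSeq start in C1ra and at -250 to -102 in C1rb. The best match of C1s1 and C1s2 was 51 of 88 bases. The GENCODE starts of C1ra and C1rb lie before their RefSeq starts. By GENCODE all of the matched C1ra stretch and part of the C1rb stretch are therefore inside the gene. Likeness upstream of the gene thus cannot be compared between the pairs from these matches. The bases before the start of C1s1 (minus strand, chr6:124542360-124542609), C1s2 (minus strand, chr6:124636086-124636335) and C1rb (plus strand, chr6:124570180-124570293, shortened to what lies before both the RefSeq and the GENCODE start) are shown because these genes differ most in level while C1s1 and C1s2 varied together. Capitals mark the only match to the C/EBP-type motif TTGCNNAA, searched on both strands.
C1s1: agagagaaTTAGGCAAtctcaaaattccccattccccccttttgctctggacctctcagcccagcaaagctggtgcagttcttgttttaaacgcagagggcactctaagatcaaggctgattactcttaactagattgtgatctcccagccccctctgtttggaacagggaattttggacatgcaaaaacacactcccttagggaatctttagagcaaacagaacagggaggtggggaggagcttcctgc
C1s2: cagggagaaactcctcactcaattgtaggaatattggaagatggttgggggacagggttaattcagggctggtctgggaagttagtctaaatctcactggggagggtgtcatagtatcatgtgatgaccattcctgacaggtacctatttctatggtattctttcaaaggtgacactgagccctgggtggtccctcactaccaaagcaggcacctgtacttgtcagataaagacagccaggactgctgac
C1rb: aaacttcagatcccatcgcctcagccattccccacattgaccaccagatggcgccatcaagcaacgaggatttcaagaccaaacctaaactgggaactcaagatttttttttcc
The match in C1s1 lies at -242 to -235 from the start, and C1rl had 1 at -243 to -236. The motif was in 9.56% of the 32851 windows of 250 bases before a start in the RefSeq table. The STAT-type motif TTCNNNGAA (7.02% of those windows) and TATAAA (12.4%), searched in the same way, had no match before the starts of C1rl, C1s1 and C1s2 or in the shorter C1rb stretch.

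The values are normalized expression values as the authors deposited them, and they step in whole reads, 1 read standing for a value of 0.0317 to 0.0864 depending on the library. The counted reads numbered 11965594 in the shallowest library and 29976557 in the deepest. The libraries carry numbers 1 to 59 in their titles, 28 of them up to 30 and 22 from 31 on, and these sets are the closest to a batch that the labels give. The titles also carry animal numbers, of which 2 stand on 2 libraries each (8 with 10, and 22 with 55). Hepatocyte markers summed to between 73512 and 119688 in every liver, with 6 of the 7 listed genes in the table and none at 0. Library 24 had one of the lowest shares of its values in the 10 highest genes, 31.01%, and results were also computed without it.

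C1s1 and C1ra were the most abundant of the 5 genes, C1rl followed, and C1rb and C1s2 were far lower. C1s1, the C1s of liver, had values from 209 to 363 with a median of 295, resting on 2896 to 9548 reads. C1ra, the C1r of liver, had values from 146 to 233 with a median of 187 (1911 to 6033 reads), and C1rl had values from 93.7 to 149 with a median of 116.02 (1225 to 3950 reads). Divided by the exon length in kilobases, so that genes can be compared, the medians were 94.3 for C1s1, 62.6 for C1ra and 38.5 for C1rl. C1s1 was above C1ra per kilobase in 50 of 50 libraries, by 1.25 to 1.80 times, and C1ra was above C1rl in 50 of 50, by 1.23 to 2.24 times.

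C1ra, C1s1 and C1rl varied little and as a continuum. Their coefficients of variation over the 50 livers were 11.8%, 11.8% and 10.1%, at the percentiles 39, 42.5 and 32 among the 200 genes nearest in mean value. Counting error came to 2.62% of the variance between libraries for C1ra, 1.69% for C1s1 and 5.72% for C1rl. None of the 3 had a gap between neighbouring libraries above 20% of its log2 range with at least 6 libraries on each side, the rule by which separate sets of libraries were recognised, the widest being 11.6% in C1s1.

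C1rb and C1s2 took 2 levels with nothing between them. C1rb lay between 0 and 0.590 in 18 libraries (median 0.188, 0 to 9 reads) and between 5.88 and 13.1 in the other 32 (median 9.07, 76 to 235 reads). The gap between these sets spanned 53.5% of its log2 range. C1s2 lay between 0 and 0.328 in 18 libraries, 13 of them at 0 reads and the highest at 5, and between 4.67 and 9.17 in 32 (median 7.03, 65 to 181 reads), with a gap of 61.8% of the range. For the 13 libraries at 0 reads of C1s2, 3 reads set an upper limit of 0.151 to 0.259 on the value, and for the 1 at 0 reads of C1rb the limit was 0.214, both covering counting error only. The coefficients of variation, 76.1% and 78.2%, were at the percentiles 99.5 and 100 among the 200 genes nearest in mean.

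The 18 libraries low in C1rb were the 18 libraries low in C1s2, with 50 of 50 on the same side of both gaps. They were 10 of the 28 libraries numbered up to 30 and 8 of the 22 from 31 on, so both library sets hold both levels. Both libraries of each shared animal number lay above the gap. Just inside the upper set stood the library at 5.88 for C1rb and the one at 4.67 for C1s2, and just below the gap those at 0.590 and 0.328.

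**Figure D1:**
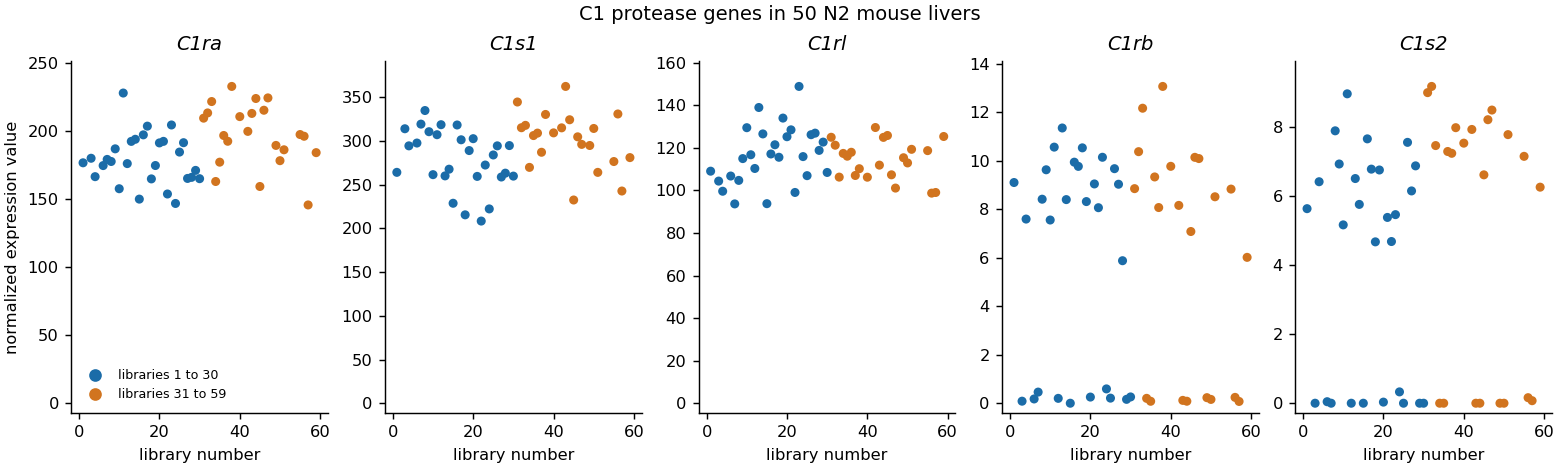
Normalized expression value (vertical axes, linear, 1 per gene) of C1ra, C1s1, C1rl, C1rb and C1s2 against library number, with 1 point per library and colour for the library set. C1ra, C1s1 and C1rl form 1 continuous band each, and C1rb and C1s2 each have 18 libraries at or near 0 and 32 that start at 5.88 for C1rb and 4.67 for C1s2.

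**Figure D2:**
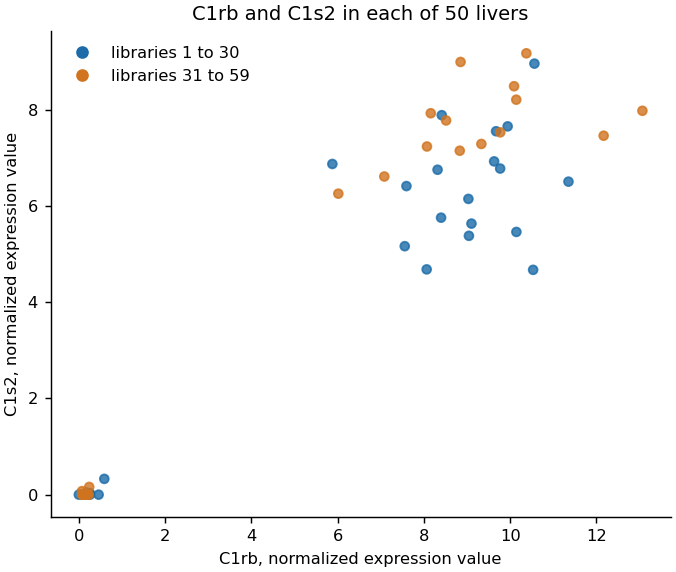
C1s2 against C1rb in normalized expression values, with 1 point for each of 50 libraries. The 18 points nearest the origin, at most 0.590 for C1rb and 0.328 for C1s2, are the same libraries for both genes, and the other 32 start at 5.88 for C1rb and 4.67 for C1s2.

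Even in the upper set the second copies were a small part of each pair. C1rb made up 3.16 to 6.00% of the summed values of C1ra and C1rb there (median 4.52%), and at most 0.401% below the gap. C1s2 made up 1.93 to 2.86% of C1s1 plus C1s2 above the gap (median 2.33%) and at most 0.147% below it. Per kilobase C1rb was above C1s2 in 31 of the 32 libraries, by a median of 1.40 times, although their ranges of 2.42 to 5.38 and 1.75 to 3.44 overlap. Which reads the counting gave to each copy where the sequences are identical was not tested.

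C1ra and C1s1 rose and fell together from liver to liver, and C1rl did not follow them. The correlations given here describe log2(value + 0.5) across libraries that share depth and normalization. Between C1ra and C1s1 Pearson's r was 0.696 and Spearman's rho 0.636 over 50 libraries, 0.592 within libraries 1 to 30, 0.756 within 31 to 59 and 0.648 without the 2 libraries farthest from the median. C1rl had r of 0.176 with C1ra and -0.0462 with C1s1. The first of these differed between the library sets, with 0.415 in libraries 1 to 30 and -0.0458 in 31 to 59.

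For C1rb and C1s2, whose libraries fall into separate sets, relations were described in the 32 libraries above the gap alone. C1s2 followed C1s1 with r = 0.803 and rho = 0.786 (r = 0.852 and 0.639 in the library sets), and C1ra with r = 0.688 (0.566 and 0.662 in the library sets). C1rb followed C1ra with r = 0.656 and rho = 0.668, and was less closely tied to C1s1 (r = 0.316, but 0.0925 in libraries 1 to 30 and 0.607 in 31 to 59) and C1s2 (r = 0.263). Over the 32 libraries each second copy had its highest r with the first copy of its own protease, with which it shares most sequence. This order did not hold in libraries 31 to 59 for C1s2, where r was 0.662 with C1ra and 0.639 with C1s1. With C1rl the values were -0.0823 for C1rb (0.308 in libraries 1 to 30 and -0.601 in 31 to 59) and -0.178 for C1s2 (-0.0468 and -0.167).

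**Figure D3:**
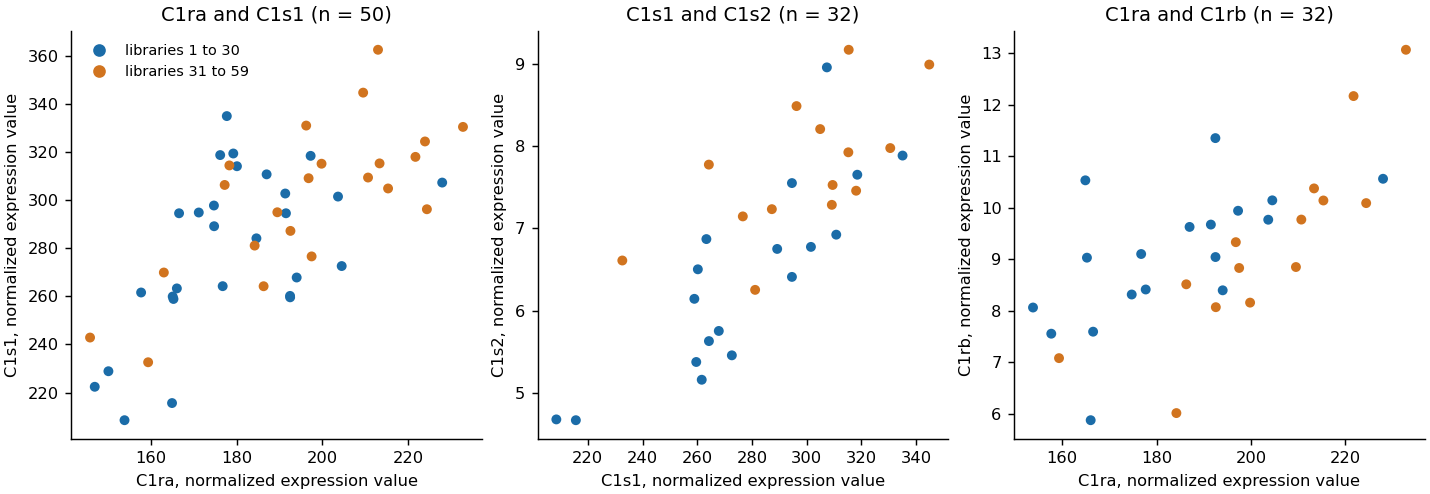
C1s1 against C1ra in 50 libraries, C1s2 against C1s1 in the 32 libraries above the gap, and C1rb against C1ra in the same 32, all in normalized expression values with 1 point per library and axes that do not start at 0. The points rise together in each plot, with r of 0.696, 0.803 and 0.656 on the log2 scale.

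The 2-level pattern was then set beside that of every other gene by counting, of the 18 libraries lowest in C1rb, how many were also among the 18 lowest or the 18 highest libraries of that gene. C1s2 shared 18 and the median gene shared 8, as did C1rl, while C1ra shared 9 and C1s1 7, so the liver forms next door did not show the 2-level pattern. Of 11434 genes, 18 shared 13 or more, and 11 of these were among the 573 genes of chromosome 6 (1.92%), 0 among 729 of chromosome 4 and 7 among 10132 elsewhere (0.0691%). On chromosome 6 none of the genes over 40 Mb from C1rb reached 13. These shares are a description of ranks, with no test.

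Gm13394 on chromosome 2, annotated as a processed pseudogene, was the only one of the 14 genes with separate sets of libraries, apart from C1rb and C1s2 themselves, that divided all 50 livers in the same way. It lay between 0.160 and 7.94 below its own gap and between 84.4 and 163 above it, and 96.8% of its 31-base stretches were also in Gapdh, which lies 0.596 Mb from C1rb and had 14 of the 18 libraries among its highest. The other genes most like C1rb by Pearson's r over 50 libraries (r itself is not given because the libraries form separate sets) were Gprc5a, an orphan G protein-coupled receptor gene 10.5 Mb away (17 of 18 among its lowest), Pik3c2g (15), Smim10l1 (14) and Gm18840 (13). In the opposite direction they were Bid, a pro-apoptotic member of the Bcl2 family, and Gm45769, each with 16 of the 18 among its highest, and Gapdh.

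Gm18840 (ENSMUSG00000107568) is an unprocessed pseudogene whose start lies 9.08 kb before that of C1rb. It had values from 3.94 to 9.12 with no gap, and its transcript was 96.6% identical to that of C1ra and 96.2% to that of C1rb, with 39.9% of its 31-base stretches in C1ra and 33.8% in C1rb. It had 13 of the 18 libraries low in C1rb among its lowest and, as given below, its values rose with C1ra as well, and the part of reads shared with either gene was not tested.

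**Figure D4:**
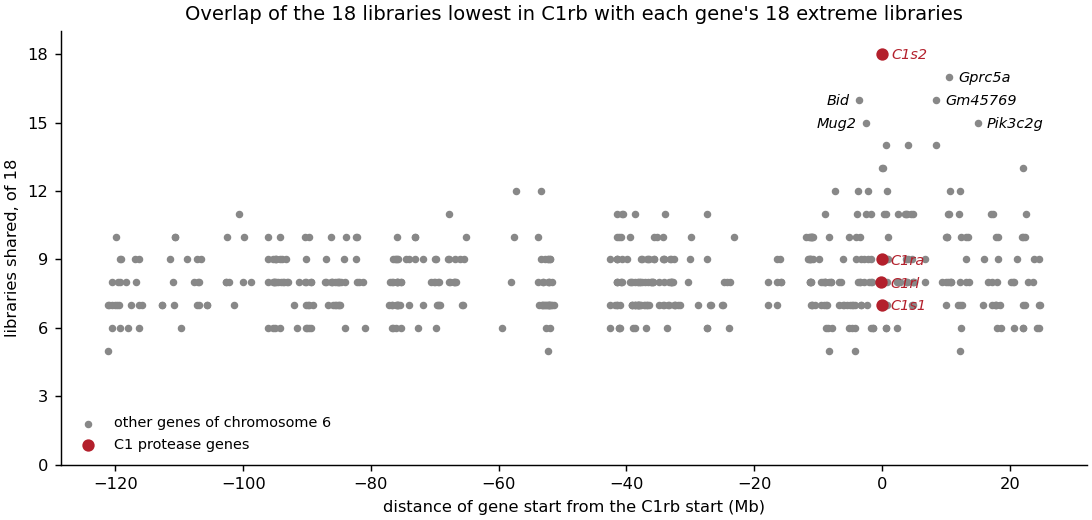
Number of the 18 libraries lowest in C1rb that were among the 18 lowest or the 18 highest of each gene of chromosome 6 (vertical axis), against the distance of the gene start from the C1rb start in Mb. C1s2 is at 18, the other C1 protease genes at 7 to 9, and the genes at 13 or more lie between 3.65 Mb before and 22.1 Mb after C1rb.

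C1ra was higher in the later library set. It had a mean of 179 ± 18.2 (SD, n = 28) in libraries 1 to 30, with values from 147 to 228, and of 196.9 ± 22.8 (n = 22) in 31 to 59, with values from 146 to 233, so the sets overlap. The difference in log2(value + 0.5) was 0.13 ± 0.05 (SE, limma, adjusted p = 0.0383). This call was kept under 8 alternatives and lost under 3. The highest adjusted p among them was 0.0856, with a difference of 0.12, without the 4 libraries that share an animal number. Among the 11436 genes tested, 7.3% were higher and 6.47% lower in the later set. C1s1 had means of 279.6 ± 33.5 and 301 ± 31.4 in the sets, a difference of 0.11 ± 0.05 with an adjusted p of 0.109.

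C1s1 fell with animal number, by 0.14 ± 0.05 on the log2 scale per 100 numbers (limma, adjusted p = 0.0325). This call was kept under 8 alternatives and lost under 3. The highest adjusted p among them was 0.0563, once the share taken by the 10 highest genes was a covariate. Of all genes 7.48% rose and 6.75% fell with animal number. C1ra had a slope of -0.08 ± 0.05 (adjusted p = 0.239). C1rl had a difference of -0.02 ± 0.04 between the library sets (adjusted p = 0.769) and a slope of 0.05 ± 0.04 with animal number (adjusted p = 0.389). For C1rb and C1s2 the spread of the 2 levels gave standard errors near 0.5, with adjusted p between 0.791 and 0.951.

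The other complement genes were then fitted against each C1 protease gene in turn, with slopes given as the change in log2(value + 0.5) per standard deviation of the protease gene, a step of 1.13-fold in C1ra and in C1s1, 1.11-fold in C1rl and 1.18-fold in C1rb and C1s2 (the last pair above the gap, n = 32). The fits use the same livers and are not independent of each other. With C1ra 4.17% of the 11431 genes tested rose and 3.4% fell (limma, adjusted p under 0.05). With C1s1 7.63% rose and 7.64% fell, with C1s2 10.3% and 9.11%, and with C1rl 0.77% and 0.175%. With C1rb 0.0% rose and 0.0% fell, the smallest adjusted p being 0.34 and 929 genes having an unadjusted p under 0.05, and edgeR also called 0 genes.

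The genes of the terminal pathway, which build the membrane attack complex, rose with C1ra in 6 of 6 tested cases. They were C6, C8a, C8b, C8g, C9 and Hc, the gene for C5 (100%, against 4.17% of all genes). The other listed gene, C7, was below the mean value of 1 needed for a test. Of the same 6, 5 rose with C1s1 and 5 with C1s2, C8g being the exception (83.3% each, against 7.63% and 10.3% of all genes). None passed the test against C1rl. The median slope of the list was 0.20 with C1ra, 0.19 with C1s1, 0.20 with C1s2 and -0.04 with C1rl, against medians over all genes within 0.005 of 0. C6 had values from 18.7 to 194.1 with a median of 81.6, and slopes of 0.50 ± 0.08 with C1ra (adjusted p = 2.81e-05), 0.56 ± 0.08 with C1s1 (adjusted p = 2.98e-07) and 0.54 ± 0.09 with C1s2 (adjusted p = 0.000314). C9, which forms the pore, ran from 113 to 708 and had slopes of 0.33 ± 0.05 with C1ra (adjusted p = 2.38e-05), 0.36 ± 0.05 with C1s1 (adjusted p = 5.09e-07) and 0.28 ± 0.06 with C1s2 (adjusted p = 0.00141). When the first principal component of all genes was added as a covariate, 1 of the 6 still rose with C1ra and 0 with C1s1 and C1s2. With library set and animal number as covariates it was 6 with C1ra, 5 with C1s1 and 3 with C1s2. C6, C8a, C8b, C9 and Hc also fell with animal number, as C1s1 did (83.3% of the list, against 6.75% of all genes).

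Of the genes for C1q and the C1 inhibitor, Serping1 rose with C1ra (25% of the list, against 4.17% of all genes). The 3 genes of C1q did not pass the test against any C1 protease gene. Serping1 had values from 543 to 880.3 with a median of 655, and a slope of 0.10 ± 0.02 with C1ra (adjusted p = 6.71e-06, at most 6.59e-05 under every alternative). C1qa, C1qb and C1qc also mark Kupffer cells, of whose 10 listed markers none passed the test against any C1 protease gene, and their summed level over livers was 344 to 622.

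Among the components of the convertases, C2, C4a and C4b rose with C1ra and passed the test (50%, against 4.17% of all genes). C3, Cfb and Cfp did not pass. C4b, the gene of complement C4, had values from 677 to 1397 with a median of 911, and slopes of 0.16 ± 0.03 with C1ra (adjusted p = 9.02e-05), 0.13 ± 0.03 with C1s1 (adjusted p = 0.00355) and 0.16 ± 0.03 with C1s2 (adjusted p = 0.000622). C4a, a near-identical copy of C4b whose counts are uncertain for that reason, ran from 1.68 to 9.89 with slopes of 0.22 ± 0.05 with C1ra (adjusted p = 0.00569) and 0.25 ± 0.05 with C1s1 (adjusted p = 0.000264). With the first principal component as a covariate C4b kept its call with C1ra (adjusted p = 0.0074) and lost it with C1s1 (adjusted p = 0.155), and C4a lost both calls (adjusted p = 0.245 and 0.102).

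In the lectin pathway, which activates C4 and C2 through proteases related to C1r and C1s, members moved in both directions. With C1ra 2 of 7 rose and 2 fell (28.6% each, against 4.17% and 3.4% of all genes). With C1s1 2 rose and 2 fell again (28.6% each, against 7.63% and 7.64%). Masp1, a protease gene of this pathway, had values from 77.6 to 143 and slopes of 0.10 ± 0.02 with C1ra (adjusted p = 0.00506), 0.11 with C1s1 (adjusted p = 0.000854) and 0.13 with C1s2 (adjusted p = 0.000407). Mbl1, a mannose-binding lectin gene, had slopes of 0.10 with C1ra (adjusted p = 0.00972) and 0.08 with C1s1 (adjusted p = 0.0329). The collectin genes Colec10 and Colec11 fell, Colec10 by 0.19 and Colec11 by 0.17 with C1ra (adjusted p = 0.000917 and 0.00152), and Colec11 by 0.23 with C1s2 (adjusted p = 0.000339). With the first principal component as a covariate, none of the 4 passed the test against C1ra or C1s1.

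Of 12 regulators tested, 5 rose with C1ra, C4bp and Clu among them (41.7%, against 4.17% of all genes). With C1s1 5 rose, Cd59a and Clu among them (41.7%, against 7.63%). With C1s2 3 rose, Clu among them (25%, against 10.3%). None fell with C1ra, C1s1 or C1s2. Without library 24 the number rising was 2 with C1ra, and without the 4 libraries that share an animal number 1 with C1s2. With the first principal component it was 3 with C1ra and 0 with both C1s1 and C1s2. With library set and animal number as covariates it was 2 with C1ra, 3 with C1s1 and 0 with C1s2. Clu, the gene of clusterin, which binds terminal complexes, had values from 817 to 1693 with a median of 1118, and a slope of 0.15 ± 0.02 with C1ra (adjusted p = 1.84e-07, at most 2.77e-06 under every alternative). Its limma adjusted p was 0.0394 with C1s1 and 0.036 with C1s2, and these calls were lost under 4 and 3 of the alternatives. None of the 3 complement receptor genes tested passed against any C1 protease gene, and no gene of the 6 complement lists passed against C1rb, or against C1rl in the reported fit. With C1rl 3 regulators and 1 lectin pathway gene rose once library set and animal number were covariates. With the first principal component 2 regulators and 1 lectin pathway gene rose. Of all genes 2.31% and 2.25% were called for C1rl in these fits, against 0.945% in the reported fit.

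**Figure D5:**
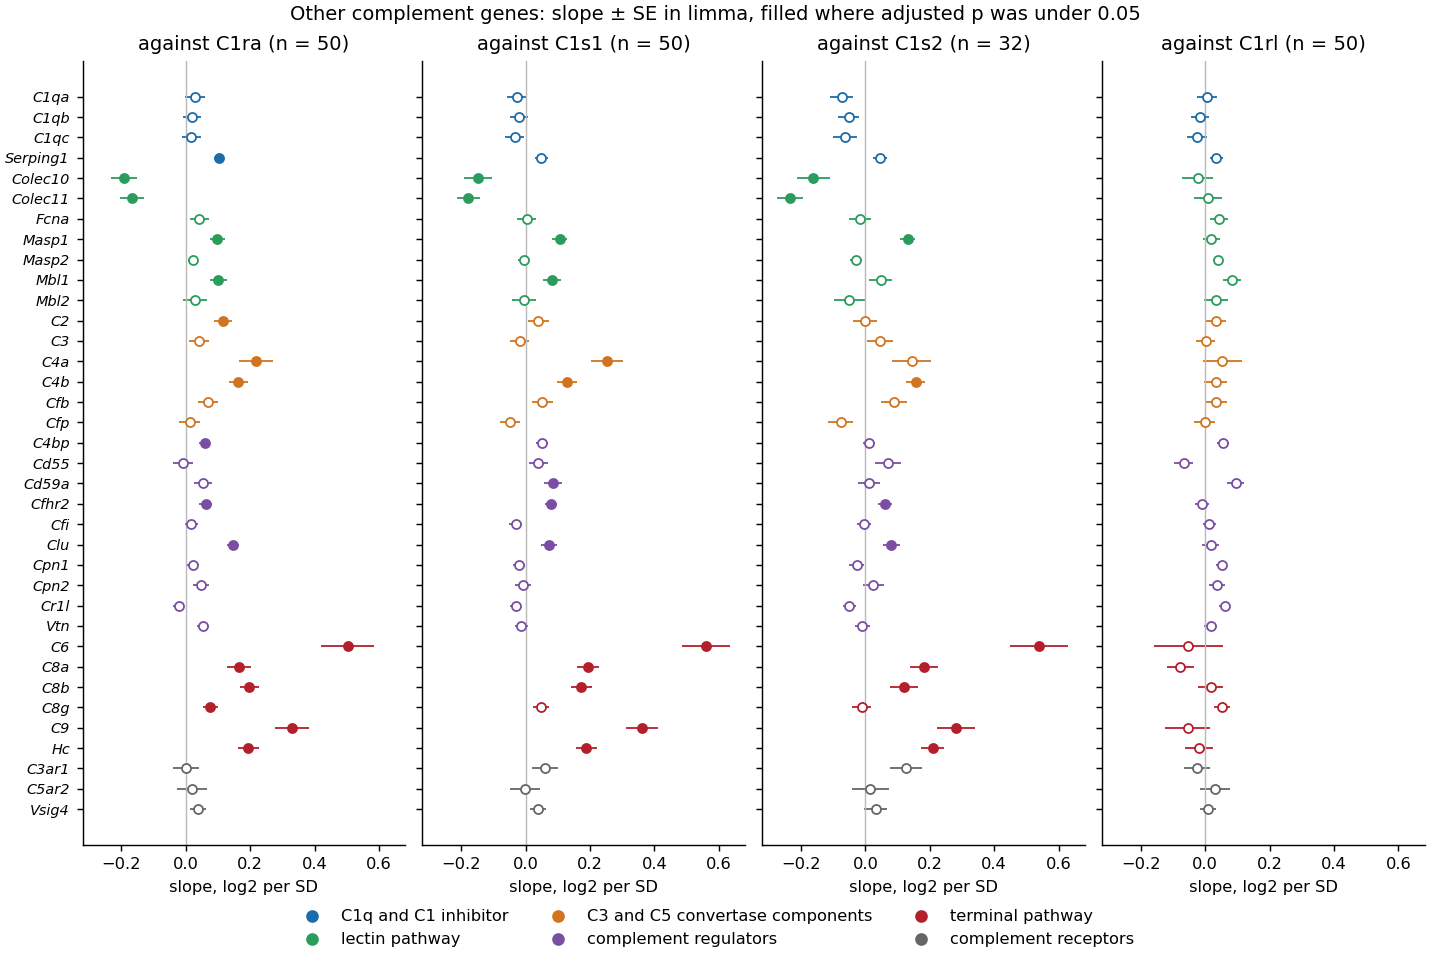
Slope of tested complement genes in log2(value + 0.5) per standard deviation of C1ra, C1s1, C1s2 or C1rl (horizontal axes), with bars for ± 1 SE and colours for the gene list. Filled points passed the limma test at an adjusted p under 0.05: the terminal pathway genes lie to the right of 0 with C1ra and C1s1, and no point is filled against C1rl in this fit.

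Some markers of other liver cells passed the same test. Of 11 stellate cell and fibroblast markers, whose summed level ran from 156 to 379, 5 fell with C1ra (Colec11, Dcn, Des, Ecm1 and Rgs5; 45.5%, against 3.4% of all genes) and 4 each with C1s1 and C1s2 (36.4%, against 7.64% and 9.11%), none rose, and none was at 0. Colec11 is on this list and on that of the lectin pathway. The 4 globin genes of the erythrocyte list fell with C1s1 (80% of the list, against 7.64% of all genes), by 0.37 for Hbb-bs (adjusted p = 5.99e-05). Alas2 rose with C1s1 by 0.19 (adjusted p = 0.000113), and the summed level of the list ran from 94.7 to 302. With animal number, along which C1s1 fell, the 4 globin genes rose (80%, against 7.48% of all genes) and Alas2 fell (20%, against 6.75%). Fits of these genes to C1s1 with animal number as a covariate are not reported here. Of 9 endothelial markers 3 fell with C1s1 (33.3%, against 7.64% of all genes) and 1 rose with C1s2 (11.1%, against 10.3% of all genes). Of 4 cholangiocyte markers tested, Spp1 rose with C1s1 (25%, against 7.63% of all genes). None of the 5 leukocyte markers tested passed against a C1 protease gene. Their part in the relations above was not tested, and in whole liver fewer cells of a type and less RNA per cell cannot be told apart.

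Over the whole table, the gene most like both C1ra and C1s1 by Pearson's r was Cyp1a2, a cytochrome P450 of drug metabolism on chromosome 9. It had values from 63.5 to 281 with a median of 192.2, and r of 0.834 with C1ra and 0.807 with C1s1 over 50 libraries, at least 0.783 within each library set and at least 0.785 without library 24. After Cyp1a2, C1ra was most like Ces3a (r = 0.799), Clu (0.780), Lmf1 (0.767) and Cyp7b1 (0.752), an oxysterol hydroxylase gene more active in male than in female mouse liver. C1s1 was next most like Mup3 (0.797), Gm4756 (0.792), Nox4 (0.790) and Mup7 (0.783). For C1s1 the first place of Cyp1a2 depended on the measure. By Spearman's rho Nox4 (0.760), Mup3 (0.709) and Mup7 (0.684) were above Cyp1a2 (0.658). Without the 2 libraries farthest from the C1s1 median, r was 0.772 for Mup3 and 0.747 for Cyp1a2. Nox4 was above Cyp1a2 in libraries 1 to 30 (0.809 and 0.793), and Mup3 in 31 to 59 (0.846 and 0.783). Mup3 and Mup7 encode major urinary proteins, a family of near-identical copies that is higher in males and whose counts are uncertain for that reason. On the negative side stood Cyp2a4, a steroid hydroxylase gene higher in female liver, with r of -0.699 with C1ra and -0.753 with C1s1. Other negative genes were Map4k4 and 2010003K11Rik for C1ra and Tmem86a for C1s1.

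C1rl had other partners. Its closest genes were Vnn3 (r = 0.648), Shmt1 (0.639), which encodes a serine hydroxymethyltransferase, Gm20319 (0.623), Scly (0.614), the selenocysteine lyase gene, and Bphl (0.611), and the most negative were Eogt (-0.606), Mllt6 (-0.558) and Zfp369 (-0.543). All 8 passed the limma test against C1rl, with adjusted p of 0.00301 to 0.0231. In the 32 libraries above the gap C1s2 was most like Tbc1d8b (0.798), Ugt1a6b (0.791), Arhgap35 (0.791), Zfp91 (0.791) and Cat (0.790), and most unlike Zfp444 (-0.788), Hspe1 (-0.771) and Fuom (-0.766). Within libraries 31 to 59 the positive values were lower, at 0.351 for Zfp91, 0.390 for Cat, 0.459 for Arhgap35, 0.569 for Tbc1d8b and 0.578 for Ugt1a6b. The genes nearest to C1rb there were Lrrc42 (0.614), Ak6 (0.596), C2 (0.593), H13 (0.593) and Slc26a11 (0.574), with Eif4e3 (-0.627), Slc38a3 (-0.621) and Thnsl1 (-0.616) on the negative side, and none of these passed the test (adjusted p of 0.34 or above).

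Within 1 Mb of a C1 protease gene start 35 other genes were tested. With C1ra 4 rose and 2 fell (11.4% and 5.71%, against 4.17% and 3.4% of all genes), with C1s1 2 rose and 4 fell (5.71% and 11.4%, against 7.63% and 7.64%), and with C1s2 2 rose and 8 fell (5.71% and 22.9%, against 10.3% and 9.11%). With C1rl 1 rose (2.86%, against 0.77% of all genes) and with C1rb none passed. Gm18840 rose with C1ra by 0.21 ± 0.03 (limma, adjusted p = 1.05e-06) and with C1s2 by 0.15 ± 0.03 (adjusted p = 0.00123). Gm44096, which overlaps the start of C1rl on the other strand, so that its reads and those of C1rl may not be told apart, rose by 0.19 ± 0.05 with C1ra (adjusted p = 0.0127) and by 0.17 ± 0.05 with C1s1 (adjusted p = 0.0252), and had an adjusted p of 0.12 against C1rl. Tpi1, a glycolytic enzyme gene, and Cd9, a tetraspanin gene, fell with C1ra, C1s1 and C1s2, by 0.12 for Tpi1 (adjusted p = 0.000448) and by 0.18 for Cd9 (adjusted p = 0.000683) with C1s1. With the first principal component as a covariate Tpi1, Cd9 and Gm44096 lost all these calls, with slopes against C1s1 of -0.02 for Tpi1 and Cd9 (adjusted p = 0.785 and 0.864) and 0.04 for Gm44096 (adjusted p = 0.788), whereas Gm18840 kept its call with C1ra (adjusted p = 0.00202). With library set and animal number as covariates Gm18840 had an adjusted p of 0.0509 against C1s2.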

How the data were processed

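Liver RNA of N2 mice was sequenced as 50 stranded poly(A) libraries, whose titles carry 48 distinct animal numbers. The paper's number of mice is neither of these. Per the methods and the submitters' processing notes, reads were trimmed, placed on GRCm38.p5 by HISAT2 and assigned to genes by HTSeq 0.11.1, and after low genes had been dropped the authors normalized the counts in edgeR. How the counting treated strand and reads that fit several places is not given in the sources used here. The authors deposited 1 table of normalized expression signal. The signal steps by a fixed amount in each library. Division by that step returned whole numbers, the reads, for 100.0% of entries (tolerance 0.01), and edgeR was run on these reads as an alternative.

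The 5 genes, the gene lists and the rules were chosen with earlier results of these data known. Tests used limma 3.58.1 in R 4.3.3 on log2(value + 0.5) of the 11436 genes with a mean of at least 1, 2-sided, with Benjamini-Hochberg adjustment over all genes and a threshold of 0.05. A fold change on this scale understates that of low genes. The fits were on library set (31 to 59 against 1 to 30), on animal number and on each C1 protease gene, with the 5 genes left out of the last. C1rb and C1s2 were fitted in the 32 libraries above their gap, and no other gene was averaged or tested between the 18 and the 32 libraries, likeness over all 50 being described by shared ranks alone. Libraries were taken as separate mice, except that 2 animal numbers stand on 2 libraries each, and all were kept.

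Named genes were the 5 genes, at most 4 per complement list (the 2 largest slopes in each direction past the threshold), the 5 most positive and 3 most negative by Pearson's r for each C1 protease gene, and called genes within 1 Mb. Values of some genes that the rule picks are not reported here. Other genes are named where a count is listed, and Mug2 in a plot, after their values were seen. Positions are from GENCODE M21 and upstream sequences from RefSeq (GRCm38.p6). The tests and the gap rule were tested on simulated data. Python 3.11.15 and Biopython were used. Alternatives covered the pseudocount, filter, scaling, left-out libraries, covariates and edgeR 4.0.16.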

Additional observations from a re-analysis of the deposited data

How the results depend on the processing

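Of 102 alternative results 88 stayed close to those reported. They were counts of called genes, held to within 1.5 times, and mean levels of the 5 genes, held to within their standard deviation. Part of these could hardly move, so the number that stayed close says little. The standard deviation between libraries is a wide margin for a mean, 4.52 around 5.94 for C1rb. The count for C1rb was 0 in the reported fit and in every alternative. Library 24 lies below the gap, so leaving it out could not change the fits on C1rb and C1s2. All 14 that moved were counts. With counted reads as a covariate 7.85% of the tested genes were called for library set (13.8% reported), 12.8% for C1s2 (19.4%) and 0.481% for C1rl (0.945%). Once the share taken by the 10 highest genes was a covariate it was 4.6% for C1ra (7.58%) and 7.64% for C1s1 (15.3%). With library set and animal number as covariates it was 4.97% for C1ra, 6.99% for C1s1, 2.4% for C1s2 and 2.31% for C1rl, and with the first principal component 3.73% for C1ra, 2.79% for C1s1 and 2.25% for C1rl. For C1rl it was 0.525% with median-of-ratios size factors and 0.455% when libraries 8, 10, 22 and 55 were left out. The cause was not tested.

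Of 1199 single values under alternatives 1100 kept their direction and side of the threshold, 92 lost their call and 7 reversed. The difference of C1rb between library sets became 0.00977 without libraries 8, 10, 22 and 55, 0.00727 with edgeR and 0.000232 with counted reads, and that of C1rl became 0.0125 with counted reads. Mbl1 against C1s1 became -0.0233 with the first principal component, after which r of C1rl was 0.0123 with C1rb and 0.00397 with C1s2. No paired analysis was possible because all libraries form 1 group.

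Depth limits C1rb and C1s2 most. Counting error came to 25.6% and 32.6% of their variance above the gap, and below it values rest on at most 9 and 5 reads. Genotypes at the C1 protease genes were not used, an exchange of reads between near-identical copies was not tested, and the order in which livers were handled is known only through library and animal numbers.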

Other observations

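Acute-phase proteins, whose genes hepatocytes switch on in inflammation, moved in part with C1ra and C1s1. Of 20 listed genes 6 rose with C1ra (Cp, Orm1, Orm2, Saa1, Saa2 and Saa4) (30%, against 4.17% of all genes) and none fell, with a median slope of 0.04 per standard deviation of C1ra. With C1s1 5 rose (25%, against 7.63%) and Apcs fell (5%, against 7.64%), the median being -0.03, and the 2 that rose with C1s2 (10%) were at the share of all genes, 10.3%. Orm1, which encodes an orosomucoid, had values from 158 to 881 and a slope of 0.30 ± 0.04 with C1ra (limma, adjusted p = 1.02e-06). Saa1, a serum amyloid A gene, had values from 13.95 to 660.5 with a median of 37.5, and a slope of 0.55 ± 0.13 with C1ra (adjusted p = 0.00371). None of the 20 passed the test against C1rl.

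Of 20 interferon-stimulated genes 2 rose with C1ra (B2m and Irf7; 10%, against 4.17% of all genes) and 5 with C1s1 (B2m, Iigp1, Irf7, Irf9 and Irgm1; 25%, against 7.63%), and none fell. The 1 that rose with C1s2 (Iigp1) made up 5% of the list, below the 10.3% of all genes. With animal number, along which C1s1 fell, Iigp1, Irf7, Irgm1 and Igtp fell as well (20% of the list, against 6.75% of all genes). Fits with covariates are not reported here for this list or for the acute-phase proteins. Irf7, a transcription factor gene of the interferon response, had a median value of 25.5 and slopes of 0.21 ± 0.04 with C1s1 (limma, adjusted p = 0.000287) and 0.15 ± 0.05 with C1ra (adjusted p = 0.0299). Of the 6 hepatocyte markers tested, Serpina1c rose with C1ra (16.7%, against 4.17% of all genes) and C1s1 (16.7%, against 7.63%). Alb and Apoa1 fell with C1s1 (33.3%, against 7.64%), and Apoa1 fell with C1s2 (16.7%, against 9.11%).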
